A study of Rattus norvegicus with 10 samples.

Results

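The heat shock proteins and DnaJ chaperones were followed in rat A7r5 cells, a smooth muscle line derived from embryonic aorta, that had been stably transfected with human BMPR2 constructs. The members were all probe sets whose platform annotation named 1 gene with a symbol of the Hspa, Hspb, Hspd1, Hspe1, Hsph1, Hsp90 or Dnaja, Dnajb and Dnajc series. The rule found 62 genes, represented by 96 of the 31099 probe sets of the table. A further 6 probe sets, annotated to several genes and covering Hsp90aa1, Hspa8, the Hspa1a and Hspa1b pair and Dnajb6, fell outside it. The 5 groups of 2 arrays each carried an empty vector, wild-type BMPR2, BMPR2 with a deletion named 2579-2580delT in the cytoplasmic tail (CD mutant), BMPR2 with C994T in the kinase domain (KD mutant) or BMPR2 with T354G in the extracellular domain (ED mutant). The titles of the empty vector arrays call them native A7r5 expression, while their transfection field and description give empty vector, which was followed here; untransfected cells and vector controls cannot be told apart from these labels. All were normoxic, at about 50% confluence in DMEM with 10% serum. The sources used here name neither the promoter of the constructs nor whether a line was 1 clone or a pool. Whether both arrays of a group stem from different cultures is not stated either, and the p-values then reflect array-to-array spread that may be technical.

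Molecular chaperones bind unfolded proteins and help them fold, assemble, cross membranes or be degraded. HSP70 proteins do this in cycles of ATP hydrolysis that DnaJ proteins (J proteins) start and exchange factors such as the HSP110 proteins end, HSP90 finishes the folding of many kinases and receptors, and the small heat shock proteins hold unfolded clients without ATP. Heat shock factor 1 induces many of these genes when unfolded protein accumulates in the cytosol, while Atf6 and Xbp1 induce those of the endoplasmic reticulum (ER), and in smooth muscle several small heat shock proteins also bind the contractile cytoskeleton. BMPR2 encodes a cell surface receptor of the bone morphogenetic protein pathway and is the main gene of heritable pulmonary arterial hypertension.

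Values are log2 probe set summaries made with RMA. Probe sets entered the test if at least 2 of the 10 arrays had a value of log2 4.82 or more, the 40th percentile of all values. Of the 96 members 83 passed, which represented 56 genes, and 7 of those passed through the KD mutant arrays alone. The 13 untested probe sets included every one of 6 genes, Hspa12a, Hspa1l, Hspa2, Hspb3, Dnajb3 and Dnajb7. "Changed", "rose" and "fell" mean an adjusted p under 0.05 in limma with Benjamini-Hochberg adjustment over all 22502 tested probe sets, two-sided. A group mean below 4.82 makes the size of a difference inexact, and such differences are given on the log2 scale only.

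The arrays labelled KD mutant stood apart, and the cell type label was matched unequally. Whether all 10 arrays come from the same cells was not tested. Each KD mutant value below therefore describes a difference between these arrays and not one tied to the mutation. The smooth muscle identity of the cells on the other 8 arrays was not tested either, and the comparisons among them below carry that limit. Over the 96 members, the Pearson correlation of the KD mutant arrays with the other 8 was 0.719 to 0.752, against 0.993 to 0.998 among those 8. Of 12 smooth muscle markers, 10 reached 4.82 on both KD mutant arrays, and Myocd and Lmod1 did not. On the other 8 arrays 6 reached it throughout, with Tagln at 4.82 to 5.19, Cnn1 at 3.98 to 4.57, and Myocd, Lmod1, Synpo2 and Tpm2 also under it on at least 1 array. The summed linear signal of these markers was 10103 to 11056 on the KD mutant arrays and 3087 to 3607 on the others, that of 8 fibroblast markers 14281 to 17665 against 221 to 260, and that of 10 epithelial markers 4783 to 5273 against 4315 to 6581. Of 10 smooth muscle markers tested against wild type 6 rose and 2 fell. Smtn was lower on the KD mutant arrays, at 8.05 to 8.62 against 10.33 to 10.48. Mylk was also lower, at 7.22 to 7.24 against 7.64 to 7.96. On the KD mutant arrays Col1a2 gave most of the fibroblast sum and Krt7 most of the epithelial sum. Cnn1, Col1a2 and Fbn1 lay under 4.82 on all the other 8 arrays, so a difference was built into their being tested. Of 6 fibroblast markers tested against wild type 5 rose, with Col1a2 at 13.46 to 13.78 on the KD mutant arrays, and Pdgfra fell, while Dcn and Lum stayed below 4.82 on all arrays. Of 8 epithelial markers tested 7 fell and Krt7 rose, to 11.84 and 12.03 (median difference -1.423). Cdh1 stood at 5.74 to 6 on the KD mutant arrays and 9.22 to 10.27 on the others. Of 5 endothelial markers 0 and 0, and of 5 leukocyte markers 1 and 3, reached 4.82 throughout, in each case for the KD mutant arrays first and the others second. Hybridization controls averaged 10.41 to 10.47 against 11.16 to 11.35, poly-A spike controls 6.64 to 7.26 against 7.49 to 8.62, and the 3′ minus 5′ log2 difference was 0.04 to 0.3 against 0.37 to 0.43 for Gapdh, 1.1 to 1.36 against 1.69 to 2.05 for hexokinase and, overlapping, 0.92 to 1.21 against 0.94 to 1.14 for beta-actin. The part of these differences in the chaperone values of the KD mutant arrays was not tested, and fewer cells of a type cannot be told apart from less RNA per cell.

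**Figure D1:**
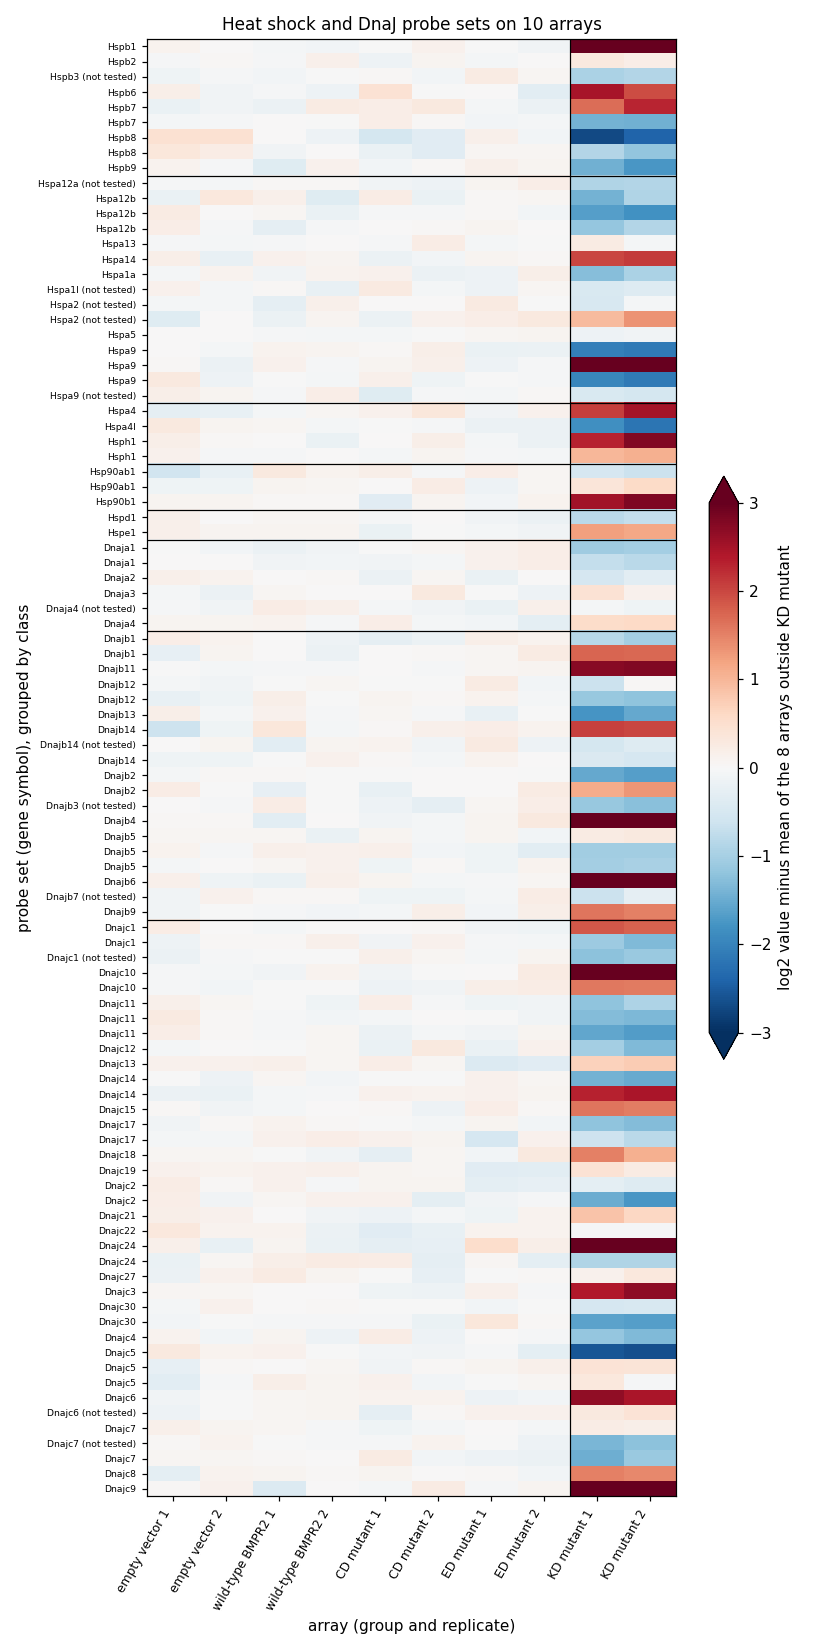
Each row is 1 of the 96 member probe sets and each column 1 of the 10 arrays; colour is the log2 value minus the mean of the 8 arrays outside the KD mutant, clipped at 3. The 8 arrays are near white in most rows, and on the KD mutant arrays 39 probe sets lie above and 48 below all 8.

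Among the other 8 arrays the chaperones hardly moved. The range of a tested member over these 8 arrays, highest minus lowest log2 value, had a median of 0.4 and ran from 0.08 to 1, beside a median of 0.37 over all tested probe sets. The widest range was that of Hspb8. On the KD mutant arrays, by contrast, 87 of the 96 members (90.6%) lay outside the range of the other 8, as did 87.1% of all 31042 non-control probe sets, so the share was near that background. Of the members 39 (40.6%) lay above and 48 (50%) below, beside 27.3% and 59.9% of all probe sets. The median of all probe sets was 4.94 to 4.95 on the KD mutant arrays and 5.31 to 5.35 on the others, while the median of the members was 6.73 to 6.79 and 6.07 to 6.3.

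Wild-type BMPR2 was compared with the arrays given as empty vector. In limma 0 of 83 members changed, where 0.0133% of all tested probe sets did, and 6 members (7.23%) had an unadjusted p under 0.05, beside 6.54% of all. Hsp90ab1, the constitutive cytosolic HSP90, stood lowest with empty vector among the groups outside the KD mutant. Its brighter probe set read 11.99 and 12.34 with empty vector, 12.85 and 12.68 with wild type, 12.73 and 12.54 in the CD mutant and 12.76 and 12.63 in the ED mutant. All 6 arrays of wild type, CD mutant and ED mutant were thus above both empty vector arrays. The KD mutant arrays, at 12.06 and 11.92, overlapped the empty vector arrays. The difference of wild type from empty vector was 0.60 on the log2 scale (SE 0.135) and did not pass (adjusted p = 0.292). The CD mutant differed by 0.47 (adjusted p = 0.323) and the ED mutant by 0.54 (adjusted p = 0.121), and these comparisons share the empty vector arrays. The other Hsp90ab1 probe set read 11.24 and 11.24 with empty vector and overlapped the ED mutant, at 11.21 and 11.43. Dnajb14, a J protein of the ER membrane, read 4.99 and 5.49 with empty vector and 5.95 and 5.56 with wild type by 1 of its probe sets, a difference of 0.52 (adjusted p = 0.56).

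Hspb8, a small heat shock protein that works with the cochaperone Bag3 in autophagy of damaged proteins, was the member that differed most among these groups. Its more variable probe set read 7.12 and 7.12 with empty vector, 6.67 and 6.49 with wild type, 6.12 and 6.32 in the CD mutant and 6.81 and 6.58 in the ED mutant. Empty vector was highest and the CD mutant lowest, without overlap between the CD mutant and any of the other 3 groups. Against empty vector it fell 1.87-fold in the CD mutant, a log2 difference of -0.90 with an SE of 0.133 (adjusted p = 0.0372). It was the 1 of 83 members (1.2%) to change in that comparison, in which 0.111% of all tested probe sets changed, and 10 members (12%) had an unadjusted p under 0.05 beside 8.74% of all. The second Hspb8 probe set kept the order, with 7.37 and 7.25, 6.93 and 7.04, 6.84 and 6.69, and 7.1 and 7.09, and differed by -0.55 without passing (adjusted p = 0.185). Wild type lay below empty vector by 0.54 and 0.33 in the first and second probe set, with adjusted p of 0.353 and 0.666. The CD mutant lay 0.36 below wild type by the first probe set (adjusted p = 1). The call in the CD mutant was lost without any 1 of the 8 arrays of empty vector, wild type, CD mutant or ED mutant, with adjusted p from 0.0764 to 0.479, and it held without either KD mutant array. Poly-A spike controls were higher in the CD mutant, at 8.56 and 8.62, than with empty vector, at 8.02 and 7.76, and their part in the Hspb8 difference was not tested.

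Other members of low p in the CD mutant did not pass. Against empty vector, Dnajc22 read 6.83 and 6.96 against 7.49 and 7.29, a difference of -0.50 (adjusted p = 0.206), and wild type, at 7.27 and 7.01, lay between. Against wild type 0 of 83 members changed in the CD mutant, as did 0% of all tested probe sets, and 1 member, Hspb8, had an unadjusted p under 0.05 (1.2% beside 3.48% of all). After Hspb8 the lowest p were those of Dnajc27, with a difference of -0.28, Dnajc22, with -0.25, and Hspa14, a ribosome-associated HSP70, with -0.24.

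In the ED mutant the lowest p values belonged to a pair of J proteins of membranes. Dnajc13, which acts on clathrin coats at endosomes, read 5.95 and 6.02 in the ED mutant, 6.5 and 6.5 with empty vector, 6.51 and 6.43 with wild type and 6.55 and 6.42 in the CD mutant. Dnajc19, a subunit of the motor that imports proteins into mitochondria, read 9.46 and 9.48 in the ED mutant, 9.94 and 9.91 with empty vector, 9.94 and 9.96 with wild type and 9.88 and 9.86 in the CD mutant. For both genes the ED mutant pair lay below the other 6 arrays outside the KD mutant without overlap. Both were named for their low p, so this separation adds no further support, and its share over all tested probe sets was not counted. The same holds for the separations given above for Hspb8 and Hsp90ab1. Neither passed. Against wild type Dnajc13 differed by -0.48 (SE 0.1, adjusted p = 0.135) and Dnajc19 by -0.48 (SE 0.1, adjusted p = 0.139). Against empty vector the differences were -0.51 (adjusted p = 0.0542) and -0.46 (adjusted p = 0.0857), and against the CD mutant -0.50 (adjusted p = 0.0771) and -0.40 (adjusted p = 0.173). With the KD mutant arrays left out of filter and fit, both passed against empty vector, with adjusted p of 0.0268 for Dnajc13 and 0.0285 for Dnajc19. Dnajc13 then also passed against the CD mutant (adjusted p = 0.0403). The total of calls over all tested probe sets also grew. Against empty vector it went from 119 of 22502 to 320 of 19534, and against the CD mutant from 79 to 145. Dnajc15, the nearest relative of Dnajc19, read 9.02 and 8.87 in the ED mutant and 8.77 and 8.83 with wild type.

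Some epithelial markers differed in the same group. Of 8 tested, 1 rose in the ED mutant against empty vector (Cdh1, by 1.01, adjusted p = 0.00364), 2 against the CD mutant (Krt18 and Krt19, by 0.52 and 0.72) and 0 against wild type. The summed signal of the list, to which Krt18 gave the most, was 6431 to 6581 in the ED mutant and 4315 to 4807 with the empty vector, wild-type and CD constructs. Their part in the values of Dnajc13 and Dnajc19 was not tested.

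Over the whole family, 0 of 83 members changed between the ED mutant and wild type, where 0.164% of all tested probe sets did, and 10 members (12%) had an unadjusted p under 0.05, beside 7.65% of all. Against empty vector the counts were 0 of 83 changed, beside 0.529% of all, and 14 with an unadjusted p under 0.05 (16.9% beside 11.4%). Between the ED and CD mutants they were 0 of 83, beside 0.351%, and 13 (15.7% beside 9.39%). Dnajc2, a J protein at the ribosome exit, read 8.75 and 8.8 in the ED mutant and 9.27 and 9.07 with empty vector, a difference of -0.40 (adjusted p = 0.169). Dnaja1, a cytosolic J protein, read 10.42 and 10.47 in the ED mutant and 10.1 and 10.18 with wild type, 0.31 higher (adjusted p = 0.424), and Dnajb5 lay 0.36 lower by 1 probe set (adjusted p = 0.448). Dnajc24, which takes part in modification of an elongation factor, differed by 0.61 between the ED and CD mutants, with all 4 arrays between 2.81 and 3.62 and so below 4.82 (adjusted p = 0.189).

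**Figure D2:**
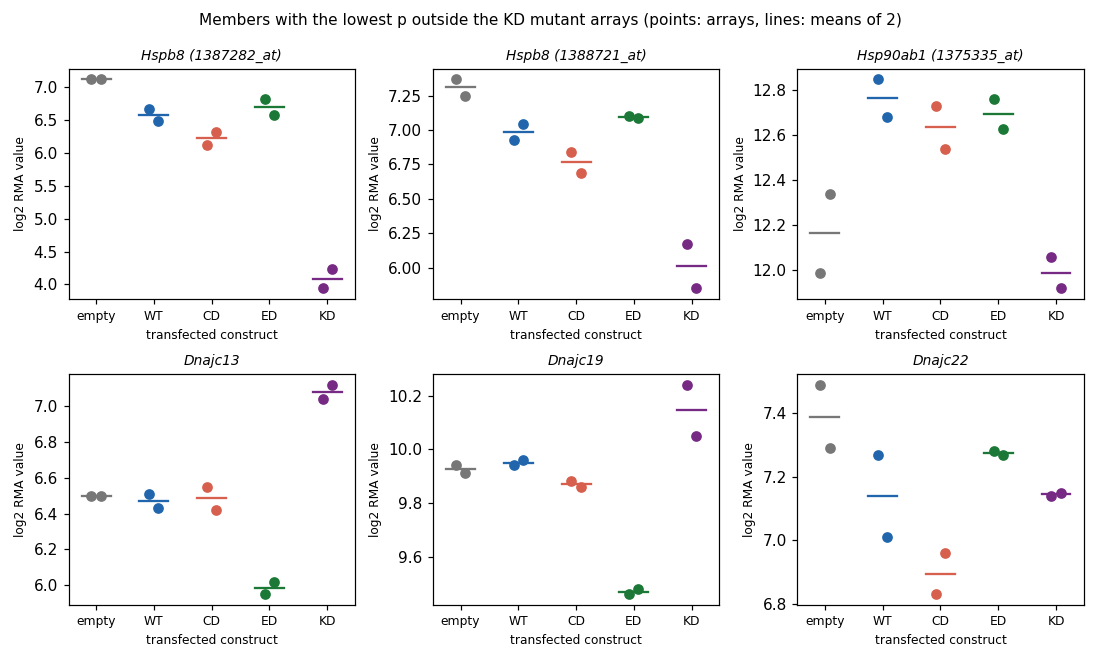
Log2 RMA values of 6 probe sets of 5 genes on each array (points) with the mean of 2 arrays (lines), for empty vector, wild-type BMPR2 (WT) and the CD, ED and KD mutants; the vertical axes do not start at 0. Hspb8 was highest with empty vector in both probe sets, Hsp90ab1 was lower with empty vector than with the wild-type, CD and ED constructs, and Dnajc13 and Dnajc19 were lower in the ED mutant than on the other 8 arrays.

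The lists of partner genes likewise held 0 changed members in each of the 6 comparisons without the KD mutant. The lists covered 5 tested genes of heat shock factors and their regulators, 31 HSP70 and HSP90 cochaperones, 15 subunits of the cytosolic chaperonin and prefoldin, 34 genes of ER folding and the unfolded protein response, and 13 of mitochondrial folding and proteases. The medians of their differences lay between -0.129 and 0.076. Hsf1, the master regulator of the heat shock response, read 7.34 in the ED mutant, 7.45 with wild type and 7.63 with empty vector. Ppid, a prolyl isomerase bound to HSP90, differed by -0.51 between the ED mutant and empty vector (adjusted p = 0.0895).

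The KD mutant arrays differed from wild type in 73 of 83 tested members (88%), where 89.6% of all tested probe sets changed. Of the members 34 rose (41%) and 39 fell (47%), beside 34.5% and 55.1% of all tested probe sets. The rises include the 7 member probe sets that passed the filter only through the KD mutant arrays, for which a difference was built in. Of all tested probe sets 10.4% passed only in that way. The median difference was 0.003 over the members and -0.556 over all tested probe sets. After quantile normalization 32 members rose and 45 fell, beside 7604 and 12344 of all 22516 tested probe sets. After centring each array on its median 43 members rose and 35 fell, beside 9648 and 10348 of all 22489. Under those scalings the median of all tested probe sets was -0.46 and -0.102. Of the 83 members, 64 had the same call under all 3 scalings, 30 rising and 34 falling, and 7 were called in opposite directions by quantile normalization and centring. The values that follow are on the deposited scale.

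**Figure D3:**
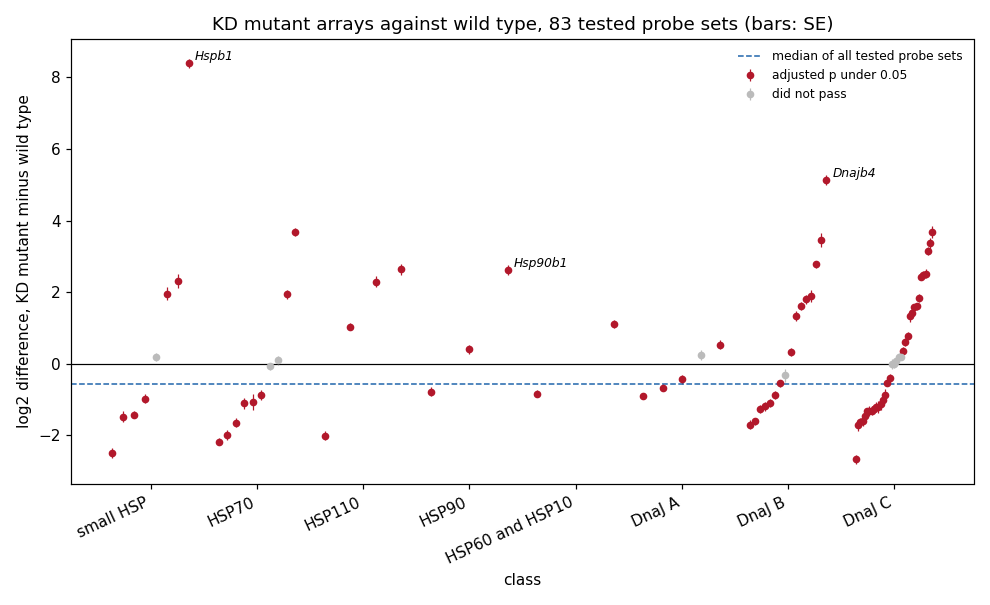
Log2 difference between the KD mutant and wild type for the 83 tested probe sets by class, with SE bars; red points passed, grey points did not, and the dashed line marks the median of all tested probe sets, -0.556. Hspb1, at 8.39, stands above all other members, and all classes with 3 or more probe sets hold points on both sides of 0.

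Of 8 tested probe sets of small heat shock proteins 3 rose and 4 fell, beside 34.5% and 55.1% of all tested probe sets. The largest difference of the class was that of Hspb1, which was tested only through its KD mutant values. Hspb1, an actin-associated holdase abundant in smooth muscle, read 12.68 and 13 on the KD mutant arrays and 4.42 to 4.65 on the other 8, with a median of 4.52. The KD mutant arrays were bright and all others lay under 4.82. It rose by 8.39 on the log2 scale against wild type (SE 0.121, adjusted p = 3.73e-13). Hspb6, which binds actin regulators during relaxation of smooth muscle, rose 4.98-fold, from 5.57 and 5.45 in wild type to 8.08 and 7.57 (adjusted p = 2.21e-07). Hspb8 fell, to 3.94 and 4.24 by the first probe set and to 6.17 and 5.85 by the second (differences of -2.49 and -0.97). Hspb9, a small heat shock protein of testis, fell to 4.04 and 3.74 (adjusted p = 2.43e-06), and Hspb2, a muscle member, differed by 0.19 without passing (adjusted p = 0.137).

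Of 10 tested HSP70 probe sets 2 rose and 6 fell, a share of falls near the 55.1% of all tested probe sets. After centring 4 were higher and 6 lower, beside 9648 and 10348 of all 22489 tested probe sets. Hspa5 (BiP), the HSP70 of the ER, varied little. It read 12.64 and 12.68 on the KD mutant arrays and 12.72 to 12.88 on the other 8, just below them, a difference from wild type of -0.07 (SE 0.093, adjusted p = 0.473). Its call depended on scale, as it fell by 0.316 after quantile normalization (adjusted p = 0.00647) and rose by 0.32 after centring (adjusted p = 0.00754). Hspa13, another ER-associated HSP70, behaved alike, with 0.10 on the deposited scale, -0.50 after quantile normalization and 0.50 after centring. Hspa1a, a stress-inducible cytosolic HSP70, read 4.06 and 4.38 on the KD mutant arrays and 5.22 and 5.43 in wild type (adjusted p = 2.87e-05). Hspa12b fell in all 3 of its probe sets and Hspa14 rose 3.85-fold.

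The HSP110 proteins, which release nucleotide from HSP70, split between genes. Hspa4 rose from 6.54 and 6.66 to 8.68 and 9.1, or 4.9-fold (adjusted p = 2.33e-08), and Hspa4l fell from 7.78 and 7.68 to 5.9 and 5.54, or 4.03-fold (adjusted p = 2.31e-08). Hsph1 rose in both probe sets, of which the dimmer was tested only through its KD mutant values. The brighter read 9.35 and 9.42 on the KD mutant arrays and 8.28 to 8.47 on the other 8, a rise of 1.04 over wild type (SE 0.104, adjusted p = 1.22e-06). Among the HSP90 genes, Hsp90b1 (GRP94), the HSP90 of the ER lumen, rose 6.14-fold, from 11.06 and 11.07 to 13.55 and 13.82 (adjusted p = 5.38e-09).

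Hspd1 and Hspe1, the barrel and the lid of the mitochondrial chaperonin, went opposite ways, each by its only probe set. Hspd1 read 12.2 and 12.29 on the KD mutant arrays and 12.84 to 13.17 on the other 8, and fell by 0.836 against wild type (SE 0.1, adjusted p = 5.98e-06). Hspe1 read 12.06 and 12 on the KD mutant arrays and 10.62 to 10.98 on the other 8, and rose by 1.12 (SE 0.104, adjusted p = 5.92e-07). Both directions held under quantile normalization and centring. The genes lie head to head in the RefSeq annotation of GRCr8, with 290 bases between their starts on opposite strands, so their promoter windows read the same DNA from both sides. The stretches are shown because they hold a heat shock element, the site that heat shock factors bind. It was searched on both strands as the units GAA, TTC and GAA with 2 free bases between neighbours, and capitals mark it. The Hspd1 stretch (chr9:64084247-64084287, minus strand, GRCr8) begins 250 bases before its start, and the Hspe1 stretch (chr9:64084247-64084294, plus strand) begins 80 bases before its own. In each, a pair of overlapping matches on opposite strands forms 1 run of capitals.
Hspd1: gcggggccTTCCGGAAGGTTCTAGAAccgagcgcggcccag
Hspe1: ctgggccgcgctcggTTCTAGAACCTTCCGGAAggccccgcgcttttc

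This element was looked for in the windows from 250 bases before to 50 after the start of every gene in the RefSeq promoter table, where 0.798% of 33469 windows held it. Of the 51 member genes with a window, 4 held it (7.84%), namely Hspd1, Hspe1, Hsph1 and Dnaja1. In Hsph1 it lay 36 to 24 bases before the start (stretch chr12:10427317-10427359, plus strand), and in Dnaja1 it lay after the start. Of these 4 genes Hspe1 and Hsph1 rose on the KD mutant arrays, and Hspd1 and Dnaja1 fell. Dnaja1 read 10.42 and 10.5 by its brighter probe set, below the 11.11 to 11.42 of the other 8 arrays (adjusted p = 3.21e-05 against wild type). A match describes the letters only and is not a shown binding site.
Hsph1: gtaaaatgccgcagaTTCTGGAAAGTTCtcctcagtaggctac

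Several chaperones that act in the ER lumen were higher on the KD mutant arrays. Of 10 tested probe sets of 8 such genes, a grouping made after the values were seen, 7 rose and 1 fell. Of all tested probe sets 34.5% rose and 55.1% fell. After quantile normalization 7 rose and 3 fell, beside 7604 and 12344 of all 22516 tested probe sets. After centring 9 rose and 1 fell, beside 9648 and 10348 of all 22489. The median difference of the grouping was 1.73 on the deposited scale, beside -0.556 over all tested probe sets. A grouping of mitochondrial members held 13 tested probe sets, of which 3 rose and 8 fell on that scale, with a median of -0.836. Dnajb11, which delivers clients to BiP, read 9.91 and 9.97 on the KD mutant arrays and 7.14 to 7.28 on the other 8, a 6.88-fold rise over wild type (adjusted p = 8.05e-11). Dnajc3, a BiP partner that also inhibits the kinase PERK, read 9.89 and 10.17 against 7.35 to 7.66 (5.74-fold, adjusted p = 1.22e-09). Dnajc10, a J protein and disulfide reductase, rose in both probe sets, by 3.16 and 1.58 on the log2 scale, and Dnajb9, which aids ER-associated degradation, rose 3.06-fold. All of these lay above the other 8 arrays, as did 27.3% of all 31042 non-control probe sets. The ER grouping included Dnajc1, which spans the ER membrane and gave the 1 fall, but left out other J proteins of that membrane. Of these, Dnajb12 fell by its brighter probe set, and Dnajb14 and Dnajc14 had probe sets that went both ways. In the list of ER folding and unfolded protein response genes, which excludes the family, 18 of 34 rose and 12 fell with a median of 0.286, beside the same 34.5% and 55.1% of all tested probe sets. P4hb, a disulfide isomerase, rose from 8.16 to 12.92, Txndc5, a thioredoxin of the ER, from 6.1 to 11.63, and Xbp1, a transcription factor of the unfolded protein response, from 6.67 to 11.09 (adjusted p from 2.53e-12 to 5.06e-12).

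The ER stress response element is bound by Atf6 with the CCAAT-binding factor NF-Y. It was searched on both strands as CCAAT and CCACG with 9 free bases between them. It was present in 22 of 33469 windows (0.0657%) and in 3 of the 51 member windows (5.88%), those of Hspa5, Hsp90b1 and Dnajc3. The stretches are shown because the levels of these genes did not move together: Hsp90b1 and Dnajc3 rose on the KD mutant arrays, and Hspa5 differed by -0.07 without passing. Capitals mark the matches, and in Hsp90b1 the second match is on the opposite strand. The stretches lie at chr3:38452958-38453006 (Hspa5, plus strand), chr15:102432519-102432567 (Dnajc3, plus strand) and chr7:23012332-23012484 (Hsp90b1, minus strand), all in GRCr8 and before the start.
Hspa5: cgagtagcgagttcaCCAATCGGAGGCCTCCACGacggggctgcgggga
Dnajc3: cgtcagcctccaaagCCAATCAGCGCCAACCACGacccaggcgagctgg
Hsp90b1: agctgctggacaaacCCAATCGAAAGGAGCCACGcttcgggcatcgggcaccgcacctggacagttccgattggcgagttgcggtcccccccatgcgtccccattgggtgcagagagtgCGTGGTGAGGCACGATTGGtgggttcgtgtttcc

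The J proteins went both ways, here with those of the ER counted in. Of the DnaJ A probe sets 1 rose and 3 fell of 5 tested, of DnaJ B 8 and 7 of 16, and of DnaJ C 14 and 16 of 35. Of all tested probe sets 34.5% rose and 55.1% fell. The balance turned with the scaling. DnaJ C gave 13 and 21 of 36 probe sets after quantile normalization and 19 and 14 of 35 after centring. DnaJ A gave 2 and 2 after centring. Over all tested probe sets 7604 rose and 12344 fell of 22516 after quantile normalization, and 9648 and 10348 of 22489 after centring. Dnajb4, a cytosolic J protein of muscle and other tissues, read 8.88 and 9.11 on the KD mutant arrays and 3.7 to 4.31 on the other 8, with a median of 4.03. It rose by 5.13 on the log2 scale over wild type (SE 0.134, adjusted p = 1.01e-11). Dnajb6, a suppressor of protein aggregation, read 8.36 and 7.75 against 4.44 to 4.77, and Dnajc9, a J protein and histone chaperone, 8.32 and 8.54 against 4.84 to 5.51. Dnajc6 (auxilin), which uncoats clathrin vesicles, read 6.47 and 6.24 against 3.65 to 3.91. For Hspb1, Dnajb4, Dnajb6, Dnajc6 and 1 probe set each of Hsph1, Dnajc14 and Dnajc24, both KD mutant arrays passed the level of 4.82 and fewer than 2 of the others did, so a difference was built into their being tested. Among the falls, Dnajb13, a J protein of sperm and cilia, went from 6.93 and 6.78 to 5.04 and 5.27, and Dnajc17, a nuclear J protein, fell 2.51-fold, Dnajb12 2.39-fold and Dnajc4 2.31-fold. The mitochondrial J protein Dnajc11 fell in all 3 of its probe sets, with log2 differences down to -1.62, while Dnajc15 rose 3.04-fold and Dnajc19 differed by 0.19 (adjusted p = 0.0926).

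Probe sets of 1 gene often gave opposite answers on the KD mutant arrays. Of 22 member genes with 2 or more tested probe sets, 11 (50%) had at least 1 that rose and 1 that fell, beside 34.1% of 3376 such genes over the whole table. For Dnajc14 and Dnajc24 the rising probe set was tested only through its KD mutant values. Without all such probe sets, a comparison added after the values were seen, 9 of 19 member genes (47.4%) went both ways, beside 31.6% of 2888 genes. The share of members rested on few genes and on the scaling: it was 8 of 23 (34.8%, beside 33.4%) after quantile normalization and 11 of 22 (50%, beside 33.3%) after centring. Hspa9 (mortalin), the mitochondrial HSP70, showed the widest gap. A probe set with 10.43 to 10.81 on the other 8 arrays read 8.59 and 8.51 on the KD mutant arrays, a fall by 2.17 against wild type (adjusted p = 1.1e-09). Another, with 6.44 to 6.75 on the other 8, read 10.36 and 10.33, a rise of 3.69 (adjusted p = 3.05e-11), and 1 more fell by 1.99.

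The disagreement took in the canonical J protein gene as well. Dnajb1 (HSP40), the main J partner of cytosolic HSP70, fell by 0.864 in a probe set with 8.83 to 9.29 on the other 8 arrays and rose by 1.81 in one with 6.61 to 7.09. Hspb7, a cardiovascular small heat shock protein, fell by 1.42 and rose by 1.96. Dnajc14 fell by 1.46 and rose by 2.43, Dnajc24 fell by 1.11 and rose by 3.68, and Dnajc1 fell by 1.31 and rose by 1.85. Dnajb2 fell by 1.61 and rose by 1.34, and Dnajb14 fell by 0.542 and rose by 1.89. Hsp90ab1 fell by 0.772 and rose by 0.40. Dnajc5, the cysteine string protein of secretory vesicles, fell by 2.67 in 1 probe set and rose by 0.36 in another, and Dnajb5 fell by 1.19 and 1.10 and rose by 0.32. The small rises of Hsp90ab1, Dnajc5 and Dnajb5 were lost after quantile normalization, and the fall of Dnajb14 after centring. No direction of the gene was therefore read for these 11. For the 37 member genes with 1 probe set in the table, such disagreement could not be checked. Hspd1, Hspe1, Hspa4, Hspa4l, Hsp90b1, Dnajb11 and Dnajc3 are among them, and their directions above are those of a single probe set. Dnaja1, Dnajc2, Dnajc11, Dnajc17, Dnajc30, Hspa12b and Hspb8 fell, and Dnajc10 and Hsph1 rose, in every tested probe set on the deposited scale. For Hsph1, 1 of these probe sets was tested only through its KD mutant values. After centring 1 probe set each of Dnajc2 and Dnajc30 did not pass, with differences of 0.00 and -0.13, nor did 1 of Hspa12b after quantile normalization (adjusted p = 0.0554).

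**Figure D4:**
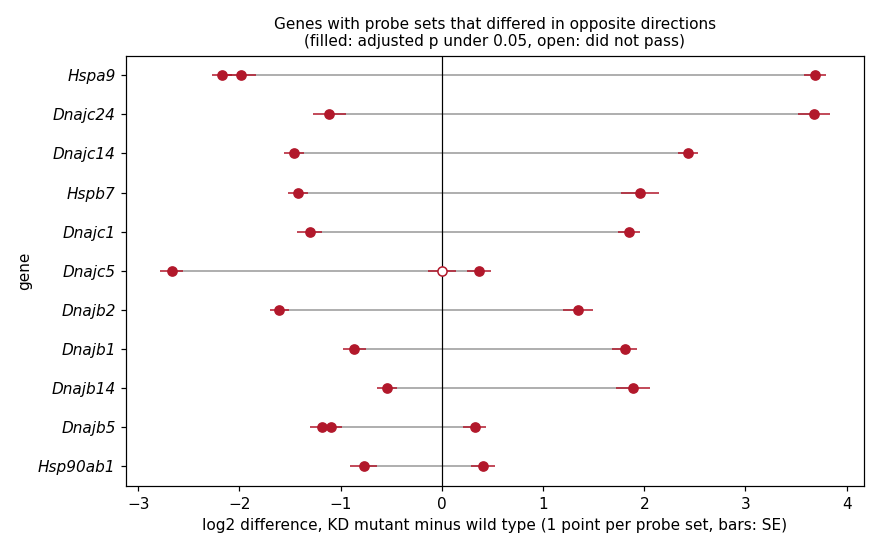
Log2 difference between the KD mutant and wild type for each tested probe set of the 11 member genes with probe sets called in opposite directions, with SE bars; filled points passed and the open point did not. The gap is widest for Hspa9, from -2.17 to 3.69, and narrowest for Hsp90ab1, from -0.77 to 0.40.

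Partner genes on the KD mutant arrays also went both ways in each list. Of 5 heat shock factor genes and regulators 2 rose and 3 fell: Hsf1 fell from 7.45 to 6.19 (adjusted p = 1.55e-07), and Hsf2 and Hsbp1, which binds the trimer of heat shock factor 1, rose by 1.39 and 3.05. Of 31 cochaperones 8 rose and 14 fell, led by rises of Bag2, an inhibitor of the ubiquitin ligase CHIP, by 4.09, and of Bag5 by 3.24. Of 15 chaperonin and prefoldin genes 5 rose and 6 fell, with Cct2, a chaperonin subunit, at 11.38 against 4.74 in wild type. The wild-type means of Cct2 and Bag2 (4.62) lay under 4.82, so the sizes of these rises are inexact. How many list genes were tested only through their KD mutant values was not counted. Of 13 genes of mitochondrial folding 4 rose and 9 fell, with Trap1, the mitochondrial HSP90, lower by 1.90 and the exchange factor Grpel1 lower by 1.38 (adjusted p = 4.73e-09 and 5.91e-08). The shares that changed were 100%, 71%, 73.3% and 100% in these lists, beside 89.6% of all tested probe sets. Of all tested probe sets 34.5% rose and 55.1% fell.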

How the data were processed

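Biotin-labelled RNA of 10 A7r5 samples was hybridised to Affymetrix rat arrays. The values the authors deposited are log2 RMA summaries, as the submitters' processing notes name that method. Its version and the set of arrays normalized jointly are not given in the sources. RMA compresses differences at low signal, and no detection calls were used. Of 31099 probe sets, 57 controls were left out of the tests; 20826 had 1 gene, 436 several and 9780 none in the platform annotation. Member symbols were checked against RefSeq (GRCr8) and none differed.

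The table was fitted with limma 3.58.1 in R 4.3.3 on all 10 arrays with 5 group means (5 residual degrees of freedom, 11.4 after moderation), after the filter at the 40th percentile on at least 2 arrays, and p-values were adjusted over all tested probe sets. The model was tested on simulated data. SDs are over 2 arrays, and their number limits the precision. The text names, for the KD mutant against wild type, the 10 largest rises and falls of genes by the brightest probe set among those that passed without overlap, all genes with opposite probe sets and the brightest member of each class, elsewhere each changed member and the 4 with the lowest p, and up to 3 genes of lowest p from each partner list. Other members named were chosen after their values were seen. Lists used the brightest probe set of each gene. The members and lists were chosen with earlier results of these data known. Replicate numbers did not pair the arrays, since the correlations of their deviations between groups were -0.029 to 0.143. Promoter sequences came from RefSeq (GRCr8), with windows for 51 of 62 genes.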

Additional observations from a re-analysis of the deposited data

How the results depend on the processing

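The alternatives changed filter, scaling, variance model, threshold and arrays. In the KD mutant against wild type the count of changed members stayed within 1.5 times of 73 under each of them, and was 71 to 75 when 1 array was left out. In wild type against empty vector, CD mutant against wild type, ED mutant against wild type and ED against CD mutant it was 0 without any 1 array. The single call in the CD mutant against empty vector, Hspb8, was lost with an adjusted p under 0.01, with no filter, with a replicate block and with only the 2 groups fitted (0 each), and ranged from 0 to 1 when 1 array was left out. In the ED mutant against empty vector, where 0 passed, 2 did with a filter at the 60th percentile, 1 after quantile normalization, 4 with a trend and robust variance and 2 without the KD mutant arrays, with 0 to 2 when 1 array was left out. Over all tested probe sets, calls of the ED mutant against empty vector also grew, from 119 of 22502. These settings gave 198 of 16323, 179 of 22516, 493 of 22502 and 320 of 19534, in that order. ED against CD mutant gave 1, 1, 2 and 1 under the same 4 settings, beside 111, 117, 287 and 145 over all tested probe sets. That total was 79 in the fit used above. The trend and robust variance also gave 1 in wild type against empty vector and 1 in the ED mutant against wild type. Calls over all 22502 tested probe sets there went from 3 to 68 and from 37 to 142. The replicate block changed no other count, at 73 for the KD mutant and 0 elsewhere. Against wild type, the rises of Dnajc5 and Dnajb5 on the KD mutant arrays became -0.204 and -0.003 after quantile normalization. The cause was not tested.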
